A study of Gallus gallus with 12 samples.

Results

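The insulin-like growth factor axis was examined in the breast muscle of broiler chickens as the transcripts of 10 genes: the ligands IGF1 and IGF2, the receptors IGF1R, IGF2R and INSR, the adaptor IRS1, and the binding proteins IGFBP2, IGFBP3, IGFBP4 and IGFBP5. Members were taken by exact match of these symbols in the platform's gene annotation. This gave 7 of the 20804 transcript clusters on the array (a transcript cluster is the set of probes that reports 1 transcript locus), for 6 of the 10 genes. IGF1R had 2 transcript clusters, and the other 5 genes had 1 each. IRS1, IGFBP2, IGFBP4 and IGFBP5 had no transcript cluster with that symbol in the annotation used, and were not analysed here. All 7 clusters were bright enough to be tested, with a mean over the arrays above a limit of 2.67 on the log2 scale that 12482 clusters passed.

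The samples were Pectoralis major, the large flight muscle, from chickens of the strain Ross PM3 killed at day 36. The 3 diets were a normal diet (treatment A, PC), a diet restricted in P and Ca, phosphorus and calcium (treatment B, NC), and that restricted diet supplemented with phytase (treatment C, Phy1000), an enzyme that frees phosphate from plant phytate. Each array held RNA pooled from 4 birds, and each diet had 4 pools, so every SD is a spread of pools. How the birds were allotted to pools is not given in the labels, and the p-values cover no more than the variation among these pools, part of which may be technical. The number of arrays limits the precision.

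IGF1 and IGF2 are small secreted hormones that promote the growth of muscle fibres and the proliferation and differentiation of their satellite cells. Both act through IGF1R, a receptor tyrosine kinase, which like the insulin receptor INSR signals through adaptor proteins such as IRS1 and IRS2. Much of circulating IGF1 is made in liver under growth hormone, and muscle makes its own as well. Binding proteins carry the ligands and limit or prolong their action. IGF2R is the mannose 6-phosphate receptor of lysosomal enzymes. In mammals it also clears IGF2, whereas the chicken receptor is known to lack the high-affinity IGF2 site.

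Array medians lay between 3.1 and 3.19 and pairwise correlations between arrays between 0.959 and 0.985. The muscle fibre markers ACTA1, TNNT3, TNNI2, TNNC2 and CASQ2 had means of 11.73 to 13.59, and PVALB, parvalbumin, was under the brightness limit at 2.47. ALB and FGB of liver were at 1.74 and 1.77, while APOA1, which chicken muscle also makes, was at 9.51 and TTR, transthyretin, at 3.23. HINTW, a transcript of the female-specific W chromosome, was at 7.57 to 8.08 in restricted replicates 1 and 2 and phytase replicates 1 and 4, and at 2.27 to 2.76 in the other 8 pools. None of the 4 normal pools carried it, and the main values that moved without those 4 pools are given below. In bulk muscle, fewer cells of a type and less RNA per cell cannot be told apart.

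Tested in limma with Benjamini-Hochberg adjustment over all 12482 clusters, 0% passed 0.05 in each of the 3 comparisons of diets, and so 0 of the 7 member clusters did. At an unadjusted p under 0.05 in limma, the shares of all tested clusters were 5.3% between restricted and normal, 8.83% between phytase and restricted and 4.32% between phytase and normal muscle, and 0 of the 7 member clusters passed in any of these. Under 8 of the alternatives some of IGF1, IGF2, IGF2R and INSR did reach that unadjusted level in a comparison, for example IGF1 between phytase and restricted muscle without phytase replicate 4, at a limma adjusted p = 0.255. The F test over the 3 diets gave 0% after adjustment and 5.97% before it, again with 0 of the 7 among them. The 4 pools of a diet lay wholly above or below those of another in 2.32%, 3.67% and 3.05% of all clusters in the same order of comparisons, and in 0 of the 7. The results below are therefore levels and differences with their intervals. An adjusted p that misses the threshold does not show that the diets were alike.

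IGF1 was the member with the largest difference between diets, and that difference was between the phytase and the restricted diet. Its transcript cluster (15388310) read 2.75, 3.22, 3.45 and 3.80 in the normal pools and 2.60, 3.28, 3.34 and 3.63 in the restricted pools. With phytase the pools read 2.99, 3.90, 3.98 and 4.08. In phytase muscle 3 of 4 pools lay above every normal and every restricted pool, and the remaining pool, replicate 4, lay below most of both. The mean was 3.31 ± 0.44 in normal, 3.21 ± 0.44 in restricted and 3.74 ± 0.50 in phytase muscle (SD, n = 4 pools each). Phytase exceeded restricted by 0.53 ± 0.28 (SE) on the log2 scale, a 1.44-fold difference, with a 95% confidence interval of -0.08 to 1.13 (limma adjusted p = 0.594). It exceeded normal by 0.43 ± 0.28 (SE), with an interval of -0.17 to 1.04 (limma adjusted p = 0.984). Restricted and normal muscle differed by -0.09 ± 0.28 (SE), well inside the spread between pools. IGF1 lay close to the brightness limit, where the authors' background correction can compress values. An offset of 16 added on the linear scale damps dim signals, and so shrinks their differences and standard errors alike. With it the phytase differences were 0.22 ± 0.11 (SE) against restricted and 0.19 ± 0.11 (SE) against normal. When single pools were left out, they ran from 0.32 to 0.77 against restricted and from 0.25 to 0.68 against normal. The lowest values came without restricted replicate 2 and without normal replicate 3.

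**Figure D1:**
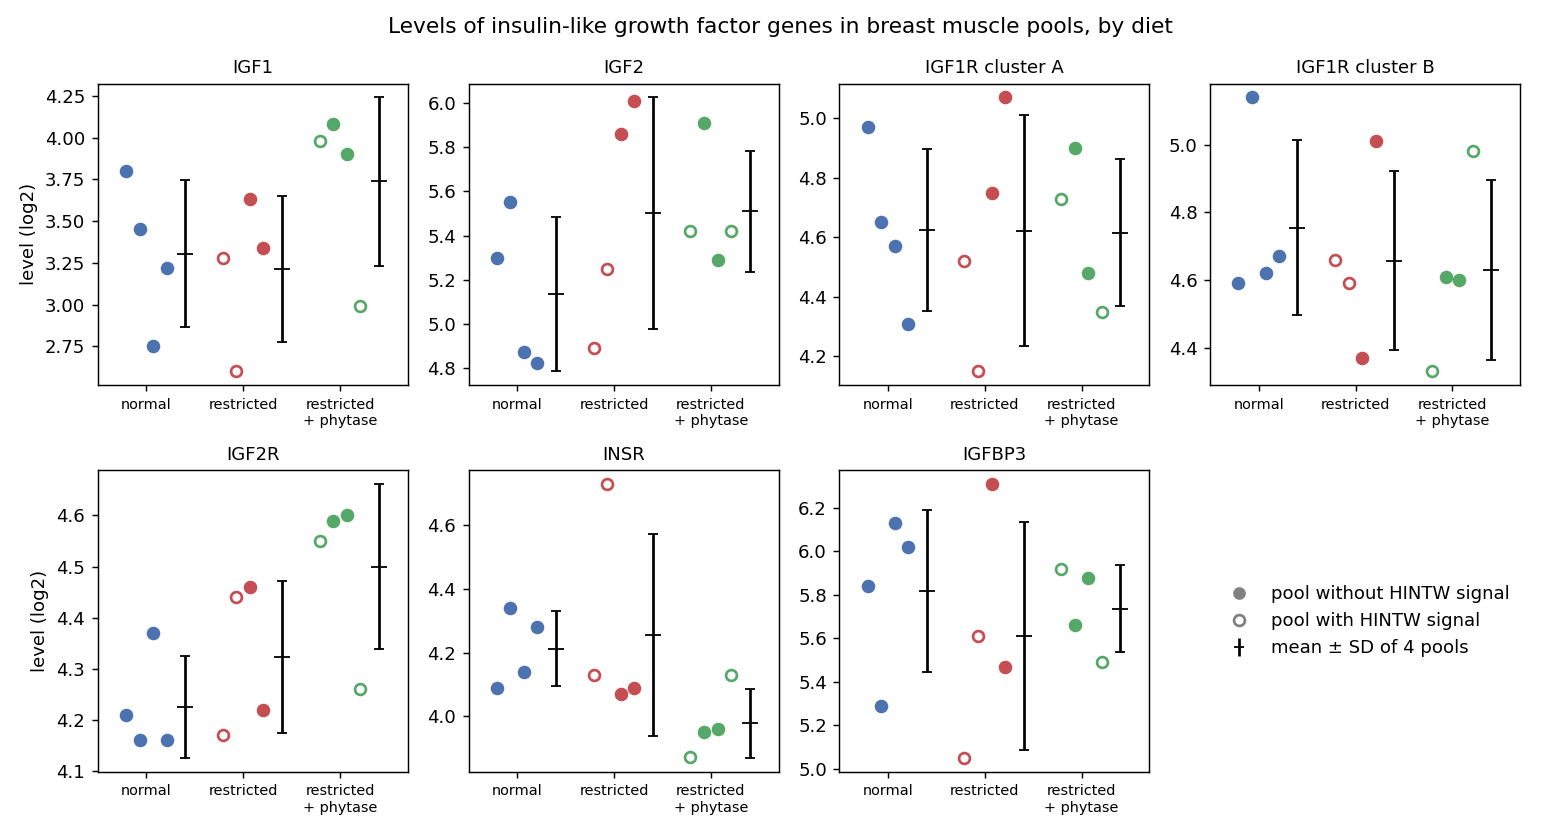
Level of each member transcript cluster (log2, vertical axis) in each of the 12 pools, grouped by diet, with the mean and SD of 4 pools in black and open circles for pools with HINTW signal. In every panel the pools of the 3 diets overlap, and for IGF1 3 of the 4 phytase pools, at 3.90 to 4.08, sit above all other pools.

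IGF2, the other ligand, differed in another way: both diets low in minerals had higher means than the normal diet. The cluster (15514802) read 4.82, 4.87, 5.30 and 5.55 in normal and 4.89, 5.25, 5.86 and 6.01 in restricted pools. Phytase pools read 5.29, 5.42, 5.42 and 5.91. The lowest phytase pool lay above 2 of the normal pools, and the groups overlapped in each comparison. Means were 5.14 ± 0.35 in normal, 5.50 ± 0.52 in restricted and 5.51 ± 0.27 in phytase muscle (SD, n = 4). The difference from normal was 0.37 ± 0.25 (SE; interval -0.17 to 0.90) for restricted and 0.38 ± 0.25 (SE; interval -0.16 to 0.91) for phytase muscle, with limma adjusted p = 0.910 and 0.984. Between phytase and restricted muscle the difference was 0.01 (interval -0.53 to 0.54). These comparisons share pools, so their values are not independent. In RefSeq's GRCg7b gene table INS, the insulin gene, is the direct neighbour of IGF2. Its cluster stayed under the brightness limit, at 1.53 to 2.40 over the 12 pools, and was not tested.

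IGF1R, the receptor that carries the signal of both ligands, had nearly equal means in the 3 diets over all pools. Cluster A (15410886) read 4.31, 4.57, 4.65 and 4.97 in normal pools. It read 4.15, 4.52, 4.75 and 5.07 in restricted and 4.35, 4.48, 4.73 and 4.90 in phytase pools. The range within each diet was far wider than the gaps between diet means, of which the largest was -0.01 (interval -0.45 to 0.43, phytase against normal). Without the 4 pools with HINTW signal, restricted minus normal was 0.29 and phytase minus restricted -0.22 in cluster A. Cluster B (15413379) read 4.59, 4.62, 4.67 and 5.14 in normal pools. It read 4.37, 4.59, 4.66 and 5.01 in restricted and 4.33, 4.60, 4.61 and 4.98 in phytase pools. Here each diet had 1 pool well above the rest: replicate 2 of normal, replicate 4 of restricted and replicate 4 of phytase muscle. Its largest difference was -0.13 ± 0.18 (SE; interval -0.52 to 0.27) between phytase and normal muscle (limma adjusted p = 0.988).

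The 2 IGF1R clusters did not follow each other over the pools. Pearson's r between them was 0.02 (permutation p = 0.957, n = 12 arrays) and Spearman's rho was -0.09 (permutation p = 0.779). Without the 2 arrays farthest from the median of cluster A, r was -0.37. The comparison was chosen after the values were seen. Restricted replicate 4 was high in both clusters, at 5.07 and 5.01, whereas phytase replicate 4 was at 4.35 in cluster A, the lowest phytase pool, and at 4.98 in cluster B, the highest. Normal replicate 1 was the highest normal pool in cluster A, at 4.97, and the lowest in cluster B, at 4.59. Which of the clusters reports the receptor's coding transcript is not given in the annotation used.

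IGF2R and INSR, the other receptors, had their most separate values with phytase, in opposite directions. IGF2R (15496774) read 4.16, 4.16, 4.21 and 4.37 in normal, and 4.17, 4.22, 4.44 and 4.46 in restricted pools. In phytase pools it read 4.26, 4.55, 4.59 and 4.60. As for IGF1, 3 of 4 phytase pools lay above every other pool and phytase replicate 4 was the low one. The means were 4.23 ± 0.10, 4.32 ± 0.15 and 4.50 ± 0.16 in normal, restricted and phytase muscle (SD, n = 4). Phytase exceeded normal by 0.28 ± 0.13 (SE; interval -0.01 to 0.56), the member difference with the smallest unadjusted p (limma adjusted p = 0.984), which ranked 588 of 12482 in that comparison. Phytase exceeded restricted by 0.18 ± 0.13 (SE; interval -0.10 to 0.46), and restricted exceeded normal by 0.10 ± 0.13 (SE; interval -0.18 to 0.38). With the offset of 16 the difference between phytase and normal muscle was 0.16 ± 0.07 (SE).

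INSR (15484932) read 4.09, 4.14, 4.28 and 4.34 in normal pools. It read 4.07, 4.09, 4.13 and 4.73 in restricted and 3.87, 3.95, 3.96 and 4.13 in phytase pools. The lowest 3 phytase pools lay below every other pool, and restricted replicate 2 stood alone at the top. Means were 4.21 ± 0.12, 4.26 ± 0.32 and 3.98 ± 0.11 in normal, restricted and phytase muscle (SD, n = 4). Phytase against restricted gave -0.28 ± 0.16 (SE; interval -0.61 to 0.06, limma adjusted p = 0.613), and without restricted replicate 2 it gave -0.12. Phytase against normal gave -0.24 ± 0.16 (SE; interval -0.57 to 0.10, limma adjusted p = 0.984). With the offset of 16 these were -0.15 ± 0.09 (SE) and -0.12 ± 0.09 (SE).

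**Figure D2:**
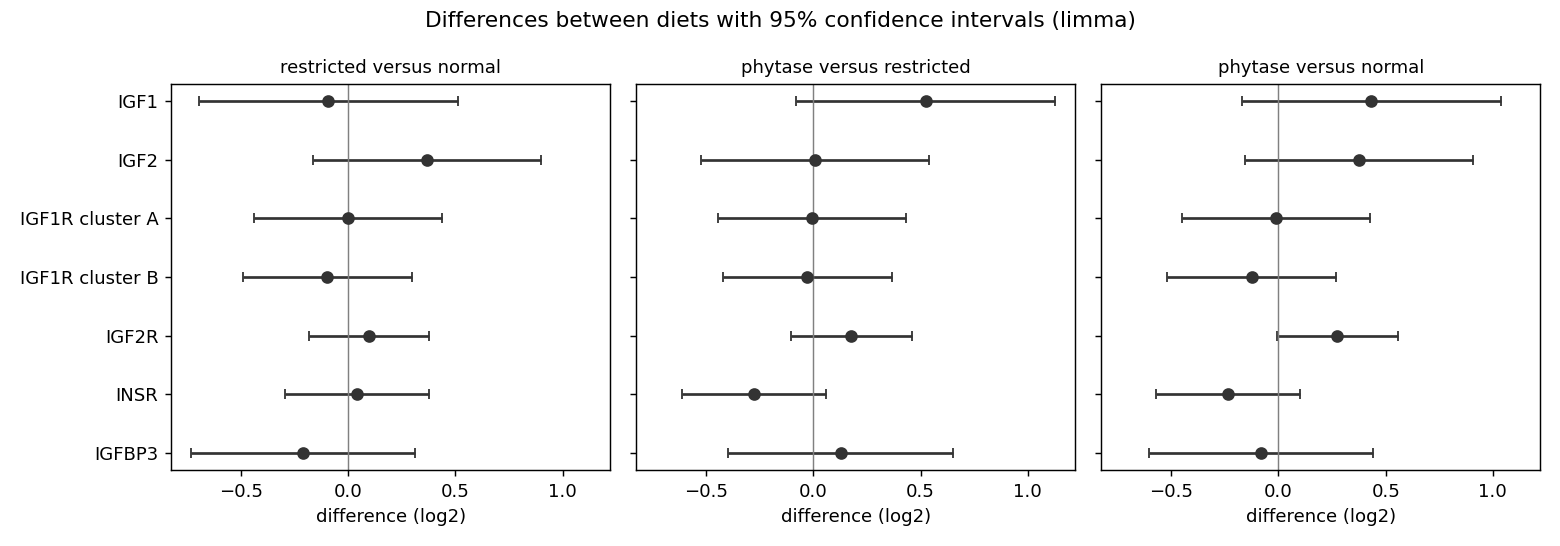
Difference between diets on the log2 scale (horizontal axis) for each member transcript cluster, with 95% confidence intervals from limma, in the 3 comparisons. Every interval spans 0; the interval that comes nearest to leaving it out is that of IGF2R between phytase and normal muscle, from -0.01 to 0.56.

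IGFBP3, a carrier of circulating IGF1 and IGF2 that is also secreted locally, was the 1 binding protein of the member list that could be followed. Its cluster (15459396) read 5.29, 5.84, 6.02 and 6.13 in normal pools. It read 5.05, 5.47, 5.61 and 6.31 in restricted and 5.49, 5.66, 5.88 and 5.92 in phytase pools. Restricted muscle held both the lowest and the highest of the 12 pools, and phytase muscle the narrowest range. Means were 5.82 ± 0.37, 5.61 ± 0.52 and 5.74 ± 0.20 in normal, restricted and phytase muscle (SD, n = 4). The largest difference was -0.21 ± 0.24 (SE; interval -0.73 to 0.31), between restricted and normal muscle (limma adjusted p = 0.947). When single pools were left out, it ran from -0.44, without restricted replicate 3, to -0.02, without restricted replicate 1. It was 0.07 without the 4 pools with HINTW signal.

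The members differed in how much they varied among pools of the same diet. The within-diet SD was 0.46 for IGF1, 0.40 for IGF2 and 0.39 for IGFBP3, above the median of 0.24 over all tested clusters. These SDs exceeded those of 91.8%, 87.1% and 86.2% of tested clusters. IGF1R was also above the median, at 0.31 in cluster A and 0.26 in cluster B, with 72.5% and 58.2% of tested clusters below it. INSR was at 0.21, with 32.9% below it, and IGF2R at 0.14, with only 7.32% of tested clusters below it. IGF1, IGF2 and IGFBP3 thus had the widest spreads of the 7 clusters and IGF2R the narrowest.

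Pools with HINTW signal had lower means of both ligands than other pools of their diet. The same held for IGF1R cluster A, IGF2R and IGFBP3, so it was not particular to the ligands. INSR had higher means with the signal in both diets, and IGF1R cluster B went either way. In restricted muscle IGF2 averaged 5.07 with and 5.94 without the signal. In phytase muscle it averaged 5.42 and 5.60. For IGF1 the averages were 2.94 and 3.49 in restricted and 3.49 and 3.99 in phytase muscle. In restricted muscle the pools with the signal lay below those without it for both ligands. In phytase muscle the pools overlapped. There IGF1 read 3.98 and 2.99 with the signal and 4.08 and 3.90 without it. IGF2 read 5.42 and 5.42 with it and 5.91 and 5.29 without it. With diet in the model the difference was -0.52 ± 0.21 (SE) for IGF2 (limma adjusted p = 0.536) and -0.53 ± 0.25 (SE) for IGF1 (limma adjusted p = 0.590). It was -0.36 ± 0.18 (SE) for IGF1R cluster A, -0.31 ± 0.24 (SE) for IGFBP3 and -0.11 ± 0.13 (SE) for IGF2R. For INSR it was 0.20 ± 0.15 (SE), and for IGF1R cluster B -0.01 ± 0.19 (SE). IGF2 was the 1 member of 7 with an unadjusted p under 0.05, a level that 8.6% of all tested clusters reached, while 0.264% of them and 0 of the 7 passed after adjustment.

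Without the 4 pools with HINTW signal, which leaves 2 pools each of the restricted diet and of phytase, several differences moved. IGF2 then exceeded normal by 0.80 in restricted and by 0.47 in phytase muscle, against 0.37 and 0.38 with all pools, and phytase minus restricted turned from 0.01 to -0.34. IGF1 exceeded normal by 0.69 with phytase, against 0.43, and by 0.18 in restricted muscle, against -0.09. IGF2R exceeded normal by 0.37 with phytase, against 0.28. For INSR phytase minus restricted was -0.13, against -0.28. No member passed the adjusted threshold in this reduced set.

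Among the 6 genes, IGF1 and INSR ran in opposite directions over the pools. Correlations were computed for all 15 pairs of genes over the 12 arrays, with cluster B, the brighter, for IGF1R. For IGF1 and INSR Pearson's r was -0.75 (permutation p = 0.00229, adjusted over the 15 pairs p = 0.0343) and Spearman's rho was -0.85 (permutation p = 0.00085, adjusted p = 0.0128). The phytase pools with the highest IGF1, replicates 1, 2 and 3, had the lowest INSR, and restricted replicate 2 had the lowest IGF1, 2.60, and the highest INSR, 4.73. The normal pools did not show this order among themselves. In normal replicates 1 to 4 IGF1 read 3.80, 3.45, 2.75 and 3.22, beside INSR at 4.09, 4.34, 4.14 and 4.28. No r was computed for these 4 pools alone. Without the 2 arrays farthest from the median of IGF1, r was -0.57, and without restricted replicate 2 alone it was -0.64 (permutation p = 0.0345, n = 11 arrays). For deviations from the diet means r was -0.65 and no longer passed (permutation p = 0.0167, adjusted p = 0.0649, n = 12 arrays), and rho was -0.58 (permutation p = 0.0524, adjusted p = 0.196). Without the 2 arrays farthest from the median of the IGF1 deviations that r was -0.25. These were restricted replicate 2 and phytase replicate 4, where IGF1 was at 2.99 and INSR at 4.13. The r within diets thus rested in large part on these 2 pools, although leaving them out also narrows the range of IGF1. Over the 8 arrays without HINTW signal r was -0.59 (permutation p = 0.122, adjusted p = 0.431).

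The other 14 pairs did not pass, with r between -0.64 and 0.45. Pairs of IGF1R cluster A with the other genes were not computed. Because the 2 IGF1R clusters did not follow each other, the values for IGF1R hold for cluster B alone. IGF1 and IGF2 had r = 0.45 (permutation p = 0.139, adjusted p = 0.428, n = 12 arrays). IGF1R cluster B and IGFBP3 had r = -0.64 (permutation p = 0.0250, adjusted p = 0.173, n = 12 arrays), and r = -0.89 over the 8 arrays without HINTW signal (permutation p = 0.00296, adjusted p = 0.0444), falling to -0.60 without the 2 arrays farthest from the median of IGF1R cluster B. There Spearman's rho was -0.62 and did not pass (permutation p = 0.117, adjusted p = 0.360, n = 8 arrays). For deviations from the diet means r was -0.72 (permutation p = 0.00756, adjusted p = 0.0649) and rho was -0.84 (permutation p = 0.00122, adjusted p = 0.0183, n = 12 arrays). The permutations shuffled these deviations across diets although the diet means had been removed, so their p-values can be too small. All members of a pair were read on the same arrays.

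**Figure D3:**
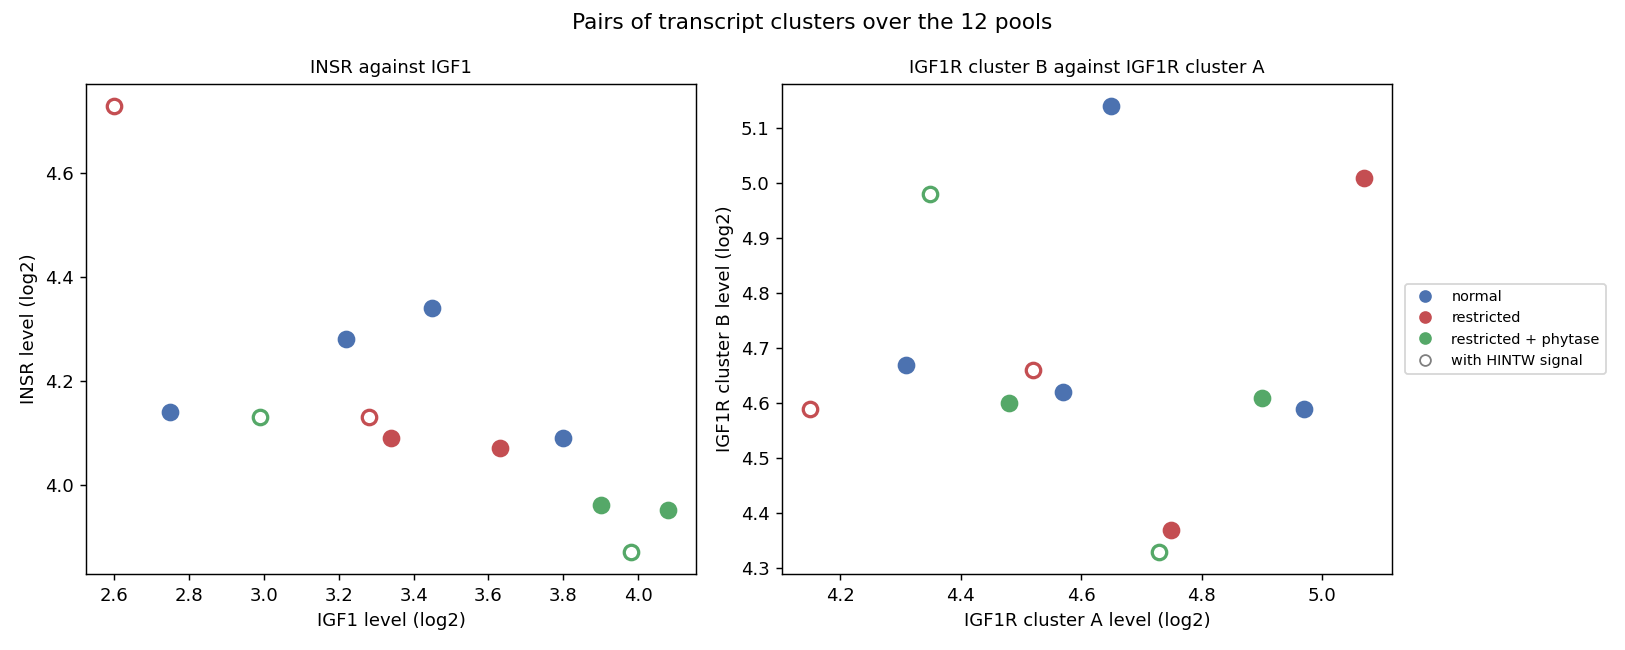
INSR against IGF1 (left) and IGF1R cluster B against IGF1R cluster A (right), both axes in log2 level, 1 point per pool, coloured by diet and open where HINTW signal was present. Over all pools together INSR tends to be lower where IGF1 is higher (r = -0.75), with restricted replicate 2 at the upper left. The normal pools do not show this order among themselves. The IGF1R clusters show no common course (r = 0.02).

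The gene with the most similar profile to each member was taken over the 12 arrays from all tested clusters with 1 symbol, as a description only, since the best of so many is high by choice. For IGF1 it was CIR1 (r = 0.94), for IGF2 KIAA1468 (r = 0.92) and for IGFBP3 SATB1 (r = 0.93). For IGF2R it was ZNF292 (r = 0.91) and for INSR RACK1 (r = 0.92), whose own range was narrow, from 10.33 to 10.63. For IGF1R it was DHCR7 with cluster A and LOC425431 with cluster B, at r = 0.88 and 0.87.

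Other genes of the axis were followed from a list of 38 that held the growth hormone pathway, further binding proteins, proteases of binding proteins with their inhibitors, adaptors and the IGF2 mRNA binding proteins. Of these, 26 had a transcript cluster and 19 were tested, and 0 of 19 passed after adjustment in any comparison. At an unadjusted p under 0.05, 0 of 19 passed between restricted and normal, 2 between phytase and restricted and 1 between phytase and normal muscle, against the 5.3%, 8.83% and 4.32% of all clusters. The median difference of the 19 was 0.05, -0.05 and 0.09 in these comparisons, and over all tested clusters it was -0.005, -0.0075 and 0. The pools of the diets did not overlap for 1, 2 and 1 of the 19, against 2.32%, 3.67% and 3.05% of all tested clusters.

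In the growth hormone pathway, JAK2, the kinase that the growth hormone receptor activates, was the gene of the list with the smallest p with phytase. It read 2.62, 3.06, 3.18 and 3.27 in normal, and 2.64, 2.84, 2.98 and 3.41 in restricted pools. In phytase pools it read 3.30, 3.31, 3.58 and 3.70, all above the normal pools. The difference was 0.44 ± 0.19 (SE) from normal (limma adjusted p = 0.984) and 0.51 ± 0.19 (SE) from restricted muscle (limma adjusted p = 0.519). Without the pools with HINTW signal these were 0.47 and 0.38. JAK2 lies on the Z chromosome in RefSeq's GRCg7b gene table, a chromosome that male birds carry as a pair and females as a single copy. SOCS2, a growth hormone target that damps this pathway, was under the brightness limit at 1.84 to 2.30.

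Among the proteases and inhibitors, HTRA1, a secreted serine protease that cleaves IGF binding proteins, had means of 5.55 ± 0.36 under the normal and 5.89 ± 0.20 under the restricted diet (SD, n = 4), a difference of 0.34 ± 0.17 (SE; limma adjusted p = 0.904). With phytase it was at 5.84 ± 0.04, in a range from 5.78 to 5.87, 0.29 ± 0.17 (SE) above normal. STC2, a stanniocalcin that inhibits the IGFBP protease PAPPA, read 2.33, 2.53, 2.65 and 2.85 in normal and 2.68, 2.76, 3.21 and 3.36 in restricted pools. In phytase pools it read 2.12, 2.54, 2.79 and 2.95. Restricted muscle thus had the highest mean, 0.41 ± 0.20 (SE) above normal (limma adjusted p = 0.904) and with phytase 0.40 lower (interval -0.84 to 0.03, limma adjusted p = 0.571). STC2 means were 2.59 in normal and 2.60 in phytase muscle, both under the brightness limit of 2.67, and 3.00 in restricted muscle. It therefore passed the brightness filter only through the restricted pools, and its differences are read close to the floor. Without the pools with HINTW signal, phytase minus restricted was -0.73 and phytase minus normal -0.26, against 0.01 with all pools. PAPPA and PAPPA2 themselves lay under the brightness limit, as did IGFBP1 and IGFALS of the further binding proteins. KAZALD1 was the 1 gene of that group that was tested, at a mean of 4.92. It differed by 0.27 ± 0.17 (SE) between restricted and normal muscle (limma adjusted p = 0.904).

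The IGF2 mRNA binding proteins, which bind IGF2 and many other transcripts, had no member past the adjusted threshold. IGF2BP1 read 3.58, 3.62, 3.63 and 3.78 in normal and 3.83, 3.85, 3.91 and 3.98 in restricted pools, without overlap. The difference was 0.24 ± 0.13 (SE; limma adjusted p = 0.904), and with phytase the range was 3.48 to 3.87. IGF2BP3 read 3.07, 3.10, 3.22 and 3.34 in restricted and 3.37, 3.41, 3.50 and 3.89 in phytase pools, also without overlap. That difference was 0.36 ± 0.15 (SE; limma adjusted p = 0.528). IGF2BP2 differed by 0.38 ± 0.20 (SE) between the same diets, and IGF2BP1 by -0.21 ± 0.13 (SE).

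Of the receptor kin and adaptors, 10 were tested, and each comparison had 4 to 6 of them on either side of 0. IRS4, an insulin receptor substrate, had its largest difference between phytase and restricted muscle, at 0.17 ± 0.15 (SE; limma adjusted p = 0.741), and 0.43 without the 4 pools with HINTW signal. IRS2, another substrate, read 3.19, 3.23, 3.23 and 3.48 in restricted and 2.94, 3.08, 3.10 and 3.17 in phytase pools. The pools did not overlap, at a difference of -0.21 ± 0.14 (SE; limma adjusted p = 0.677), which was -0.085 without the pools with HINTW signal. SHC1, an adaptor that links these receptors to Ras, was 0.27 lower with phytase than in normal muscle in its brighter cluster (interval -0.60 to 0.07, limma adjusted p = 0.984). Its dimmer cluster differed by -0.05 there. Between restricted and normal muscle the dimmer cluster differed by 0.36 and the brighter by -0.08, and between phytase and restricted muscle by -0.41 and -0.19. The dimmer cluster, which is not among the 19, had an unadjusted p under 0.05 in both of these comparisons.

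**Figure D4:**
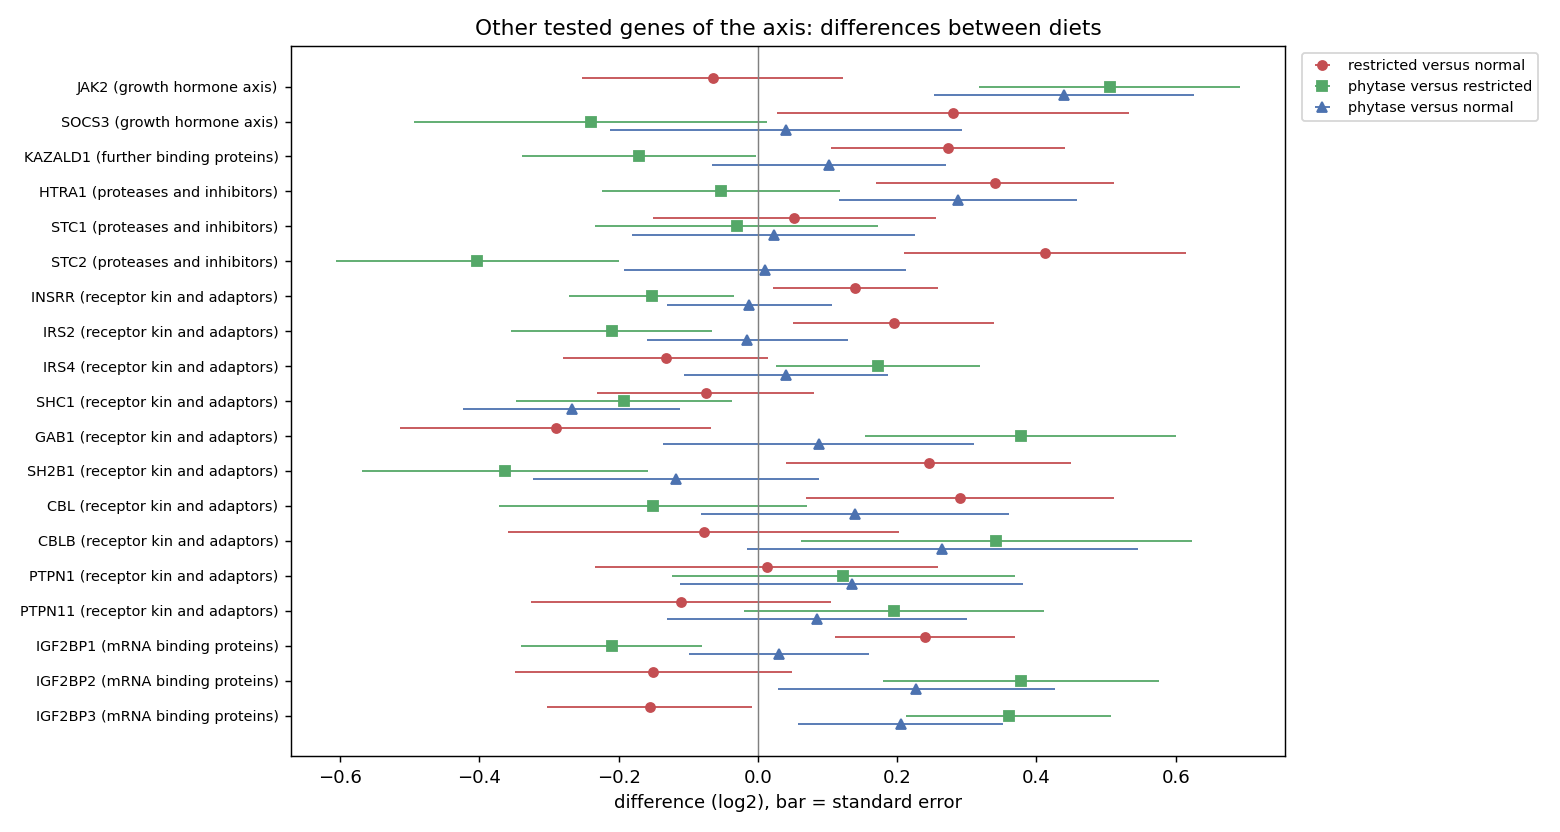
Differences between diets on the log2 scale (horizontal axis) for the 19 other tested genes of the axis, with standard errors, in the 3 comparisons. JAK2 has its largest values with phytase, at 0.51 and 0.44, and most genes lie within 2 standard errors of 0.

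Markers of other cells in muscle were read beside these levels. The summed level of 8 fibroblast markers, cells that also secrete IGFs and binding proteins, ran from 11.81 to 12.76 in normal, 12.30 to 12.96 in restricted and 12.31 to 12.95 in phytase pools (log2 of the summed linear levels). That of 5 endothelial markers ran from 7.40 to 7.59, 7.22 to 7.92 and 7.56 to 7.86 in the same order. For 4 adipocyte markers the ranges were 7.61 to 8.40, 8.20 to 8.57 and 7.80 to 8.30, and for the alpha globins HBA1 and HBAD 7.71 to 8.05, 8.94 to 10.61 and 7.67 to 8.89. For 5 macrophage and lymphocyte markers they were 9.49 to 10.20, 9.67 to 10.68 and 9.57 to 10.29, and for 3 satellite cell markers 8.11 to 8.27, 7.99 to 8.32 and 8.07 to 8.50. Linear sums mostly follow their brightest gene. By mean level this was COL1A1 at 11.83 (next 9.33) for fibroblasts, CD74 at 9.85 (next 6.61) for macrophages and lymphocytes, and MYOD1 at 7.76 (next 5.56) for satellite cells. Dimmer markers such as PTPRC, at 2.62 to 5.55, and LY86, at 5.48 to 7.99, enter less. Together they still counted in the restricted pool with the highest macrophage and lymphocyte sum, 10.68, since CD74 did not exceed 10.36 in any pool. The 4 liver genes, of which APOA1 gave nearly all of the sum, ran from 9.01 to 9.82, 9.14 to 10.45 and 8.44 to 10.22. TCF21 of the fibroblast, PPARG of the adipocyte and CD4 of the lymphocyte markers were under the brightness limit. The diets overlapped in each list except the globins, where every restricted pool lay above those of both other diets. Their part in the levels of the IGF genes was not tested.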

How the data were processed

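RNA of 12 pools of Pectoralis major was measured on Affymetrix arrays, with 100 ng of total RNA per pool, per the labels' protocols. Log2 levels, 1 per transcript cluster and array, were deposited by the authors. The submitters' processing notes name Affymetrix Expression Console and GCRMA without versions or roles. The base of the log was taken as 2 from the range, 0.83 to 14.36. GCRMA corrects background by probe sequence and can compress dim signals. No pair of arrays held identical values.

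In the platform annotation, which named the genes, 12300 clusters had 1 symbol, 256 several and 8248 none; the gene identifiers of all 7 member clusters carry the same symbol in RefSeq's gene table. Groups came from sample titles. Clusters whose mean reached the 40th percentile were fitted in limma 3.58.1 (R 4.3.3) with 1 mean per diet over all 12 arrays and a prior variance that followed intensity. Benjamini-Hochberg adjustment ran over all 12482 clusters. The fit was tested on simulated data. Where a gene had several clusters outside the member list, the brightest was used. Pearson's r and Spearman's rho had two-sided permutation tests with 100000 resamples. For deviations from the diet means the shuffling also crossed diets, so those p-values can be too small.

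Genes named were the 10 members, the 3 listed axis genes with the smallest p in each comparison, the nearest profile of each member and marker lists. IRS2, IRS4, IGF2BP2, SOCS2, INS, PAPPA, PAPPA2, IGFBP1, IGFALS and KAZALD1 were named after their values were seen. Members and lists were chosen with earlier results of these data known. HINTW signal meant a level over 5. Alternatives were other filters, normalizations, array weights, an offset, a replicate block, and leaving out arrays.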

Additional observations from a re-analysis of the deposited data

Results flagged for a closer look

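The 7 member clusters and 6 further named genes in each diet gave 39 sets of 4 pools. In 5 of them 1 pool lay so far from the other 3 that its gap exceeded Dixon's 95% critical share of the range. Chance flags about 5% of such sets if values are independent and normally distributed. Sets read on the same arrays are not independent, and the share over all tested clusters was not computed. Whether 5 flags are more than usual on these arrays was therefore not tested. Phytase replicate 4 was low for IGF1, at 2.99 where the other phytase pools were at 3.90 to 4.08, and for IGF2R, at 4.26 against 4.55 to 4.60. Without it, phytase exceeded restricted muscle by 0.77 for IGF1 and exceeded normal muscle by 0.36 for IGF2R. These were the highest values when single pools were left out. The lowest were 0.32 for IGF1, without restricted replicate 2, and 0.24 for IGF2R. Restricted replicate 2 was high for INSR, at 4.73 against 4.07 to 4.13. Normal replicate 2 was high for IGF1R cluster B, at 5.14 against 4.59 to 4.67. Normal replicate 4 was high for SHC1, at 6.64 against 6.09 to 6.14. Phytase replicate 4 and restricted replicate 2 were both among the pools with HINTW signal.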

How the results depend on the processing

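In each comparison and in the F test, 0 clusters passed the adjusted threshold in limma under every alternative run, and so no member did. Member differences were not listed singly under the other filters. Over the remaining alternatives the lowest limma adjusted p of a member difference was 0.255. At an unadjusted p under 0.05, 17 member differences passed, spread over 8 alternatives: no intensity trend, array weights, both HINTW settings, and leaving out normal replicate 3, restricted replicate 1 or 3, or phytase replicate 4. The counts at an unadjusted p under 0.05, with 662, 1102, 539 and 745 clusters between restricted and normal, phytase and restricted, phytase and normal, and over the 3 diets, ran from 440 to 1073, 696 to 1727, 327 to 687 and 495 to 1233 when single arrays were left out. The first became 1040 without a filter. The second became 587 without the 4 pools with HINTW signal. The third became 882 without a filter, 341 with a limit at the 60th percentile, 895 with array weights, 839 without the 4 pools and 1024 with HINTW signal as a covariate, a choice added after the data were known. Of 336 recomputed member differences 305 kept their sign, or were 0 to 2 decimals in the main analysis or in the alternative. The other 31 turned, all from differences of 0.21 or less, and the cause was not tested. IGF1R cluster A between restricted and normal muscle, at -0.0025 in the main analysis, could not count as turned. It became 0.29 without the 4 pools and 0.18 with the covariate.

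Between restricted and normal muscle IGF1 turned to 0.18 and 0.17 without the 4 pools and with the covariate, INSR to -0.13 and -0.056, and IGFBP3 to 0.07 without the pools. Between phytase and restricted muscle IGF2 turned to -0.0088 with quantile normalization and -0.34 without the pools, IGFBP3 to -0.12 without the pools, and IGF1R cluster A to 0.058 with array weights. Between phytase and normal muscle IGF1R cluster A turned to 0.0092 with weights, 0.065 without the pools and 0.17 with the covariate, and IGFBP3 to 0.074 with the covariate. When single arrays were left out, the differences between restricted and normal muscle ran from -0.28 to 0.11 for IGF1 and -0.12 to 0.10 for INSR. For IGF1R they ran from -0.152 to 0.155 in cluster A and -0.22 to 0.031 in cluster B. Between phytase and restricted muscle they ran from -0.20 to 0.18 for IGF2, -0.059 to 0.36 for IGFBP3, -0.17 to 0.14 for IGF1R cluster A and -0.14 to 0.09 for cluster B. Between phytase and normal muscle they ran from -0.12 to 0.11 for IGF1R cluster A and -0.26 to 0.021 for IGFBP3.

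By Pearson's r, the 1 correlated pair among the members became 0 for deviations from diet means. There IGF1R cluster B with IGFBP3 passed by Spearman's rho, with a p-value that can be too small because the shuffling crossed diets. Without the 4 pools with HINTW signal 1 pair passed by r, but another pair, IGF1R cluster B with IGFBP3. IGF1R cluster A entered no pair with another gene, so this relation is not shown for IGF1R as a gene. The labels share replicate numbers across diets, but only 3 of 12 same-numbered pairs of arrays had deviations correlated above 0.1, with r from -0.162 to 0.178, so the numbers were not taken as pairs. With the replicate block the counts at an unadjusted p under 0.05 were 623, 1072, 518 and 722. Signal close to background limits the dimmer genes, IGF1 among them.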
